A study of Homo sapiens with 4 samples.

Results

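Imprinted genes are genes that are read from the maternal or the paternal copy alone, and 40 of them, taken by symbol from a list grouped by locus, were followed among the 56865 genes of the deposited tables. The study read poly(A) RNA of MDA-MB-468 (spelled MDA-MD-468 in some labels), an established human line labelled as triple negative breast cancer, at passage 12. One group received MS1943 at 5 µM over 3 days (n = 2), and the other received DMSO, the vehicle, for a time the labels do not give (n = 2). The series title names MS1943 as a degrader of EZH2, the enzyme of Polycomb repressive complex 2 that methylates lysine 27 of histone H3, and the question was which RNAs differ under it. The labels speak of duplicate dishes of this line, with no knockout, transgene or second line, and do not say whether the duplicates were independent experiments. The titles of the MS1943 libraries carry several letters and those of the DMSO libraries a single letter, and the labels do not say whether libraries were pooled. Every p-value therefore measures the spread between these libraries, which may be technical. Of the 40 genes, 38 had a gene-level sum. The transcript NESP55 was read from within GNAS, and HYMAI was not analysed here.

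Imprints are set in the germ line as DNA methylation of imprinting control regions on the copy from the mother or the father, and they are kept through cell division by DNA methyltransferases and by zinc finger proteins that bind the methylated copy. Around these regions, silencing spreads in other ways, among them long non-coding RNAs and histone H3 lysine 27 methylation by Polycomb. Imprinted genes are known mainly from fetal growth, placenta, metabolism and brain, and loss of an imprint, or of a copy, is common in cancers. RNA abundance alone was measured here, so nothing below says which parental copy was read, and in bulk RNA fewer cells that read a gene cannot be told apart from less RNA per cell.

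The libraries held 69878745 and 47564377 estimated reads with MS1943, against 64720699 and 71378893 with DMSO. The share of reads from mitochondrial genes was 3.50% and 3.09% with MS1943 and 1.64% and 1.77% with DMSO. Of the markers of the line, EPCAM, KRT8, KRT18, KRT19, CDH1 and EGFR were read in all libraries, summing to 5500 and 5460 TPM (a level per transcript length, scaled to the same sum in each library) with MS1943 and 6640 and 6710 TPM with DMSO. Of the receptors behind the triple negative class, PGR had 0 reads in every library, ESR1 rose (4.83 and 5.11 CPM, reads scaled to library size, with MS1943 against 3.17 and 3.25 CPM with DMSO, edgeR adjusted p = 3.76e-04), and ERBB2 fell (66.8 and 63.3 CPM with MS1943 against 82 and 81.6 CPM with DMSO, adjusted p = 3.79e-05). The leukocyte markers summed to 128 and 134 TPM with MS1943 against 189 and 190 TPM with DMSO. Within that sum CD14 fell (95.9 and 103 TPM with MS1943 against 187 and 189 TPM with DMSO, adjusted p = 3.76e-10) and CD68 rose (31.7 and 30.6 TPM with MS1943 against 1.72 and 0.733 TPM with DMSO, adjusted p = 3.26e-17), while PTPRC and CD3E each stayed at or under 0.0866 TPM. The fibroblast markers summed to 18.0 and 15.3 TPM with MS1943 against 12.8 and 10.7 TPM with DMSO, nearly all of it COL1A1, and the endothelial markers to 0.472 and 0.282 TPM against 1.07 and 0.917 TPM. The part of mitochondrial reads and of these markers in the results below was not tested.

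Changes ran in both directions through the imprinted genes. Genes were called at an adjusted p under 0.05 (edgeR, quasi-likelihood, adjusted by Benjamini-Hochberg over 19358 tested genes): 27 of the 40 imprinted genes had enough reads to be tested, and 8 of these rose and 9 fell. PEG3, GRB10 and PHLDA2 were the largest rises, and H19, DIRAS3 and PEG10 the largest falls. The test called 59.3% of all tested genes (30.0% higher and 29.4% lower), so the 63.0% called among the imprinted genes (29.6% higher and 33.3% lower) was near the background. The MS1943 and DMSO libraries did not overlap for 20 of the 27, where 78.3% of all tested genes did not overlap, and 6 of the 27 were called with a change of at least 2-fold, where 15.9% of all tested genes were. DIRAS3 passed the filter on low reads through the DMSO libraries alone, and ZIM2 had 7.7 reads in MS1943 replicate 2. The median log2 fold change (MS1943 over DMSO) was 0.01 over the imprinted genes and -0.01 over all tested genes. Scaling by total reads in place of TMM moved the median of all tested genes to -0.12, and then 5 imprinted genes rose and 10 fell. Of all 19358 tested genes, 4619 rose and 6973 fell under that scaling.

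**Figure D1:**
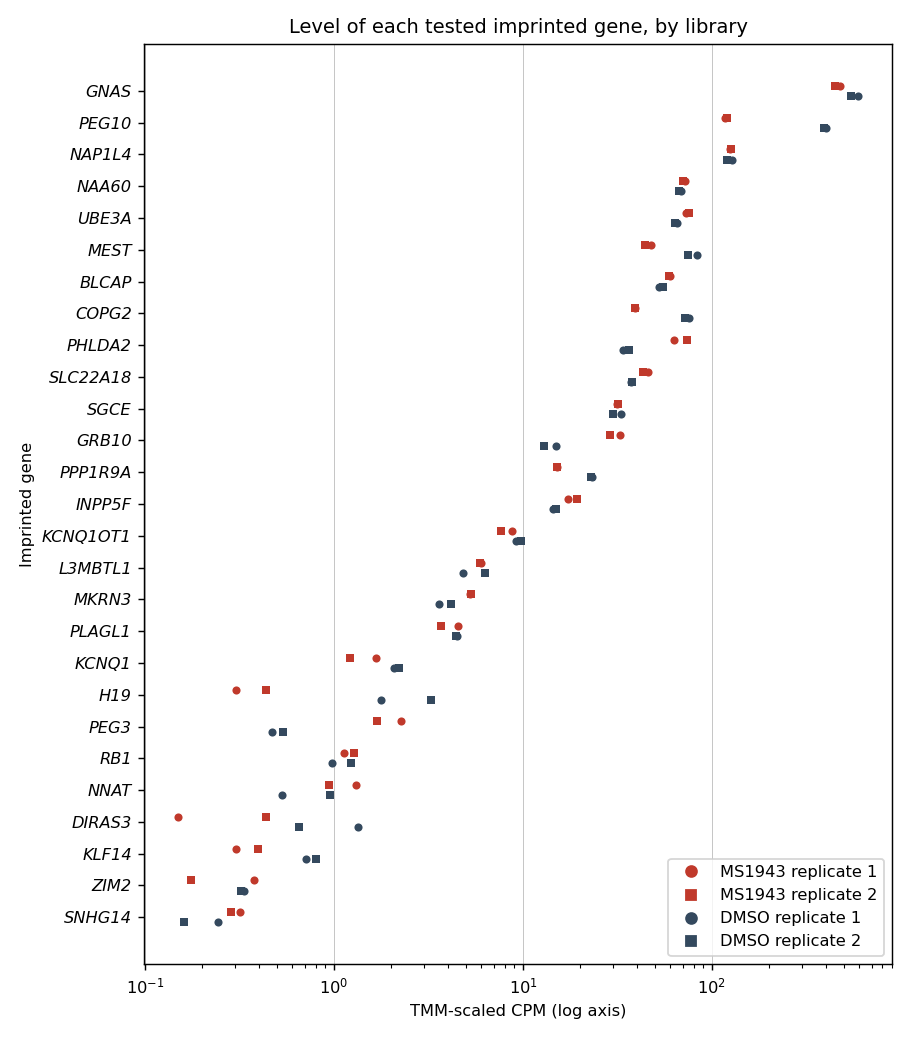
Level of the 27 tested imprinted genes in each library, in TMM-scaled CPM on a log axis, ordered by mean level, with MS1943 libraries in red above DMSO libraries in dark blue. PEG10, MEST, COPG2 and H19 lie lower in both MS1943 libraries, PHLDA2, GRB10 and PEG3 lie higher, and the points of NAP1L4, SGCE and RB1 lie among each other.

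Levels per length spanned more than the changes did. GNAS, which encodes the stimulatory G protein alpha subunit, was the most abundant, with 492 ± 24.3 TPM with MS1943 and 645 ± 19.2 TPM with DMSO (SD, n = 2 each). With MS1943 the next in order of TPM were PHLDA2 (128 ± 14.5), NAP1L4 (95.3 ± 3.02) and SLC22A18 (55.1 ± 5.50). With DMSO they were PEG10 (105 ± 2.10), NAP1L4 (99.9 ± 2.68), PHLDA2 (72.4 ± 4.72) and MEST (69.7 ± 7.21), of which PHLDA2 and MEST overlapped. At the other end, 6 imprinted genes had 0 reads in every library, and 5 had so few that they were not tested. Where no read was counted, 3 reads as the floor allow up to 0.0451 and 0.0656 CPM in the MS1943 libraries and 0.0456 and 0.0400 CPM in the DMSO libraries, for counting error only.

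**Figure D2:**
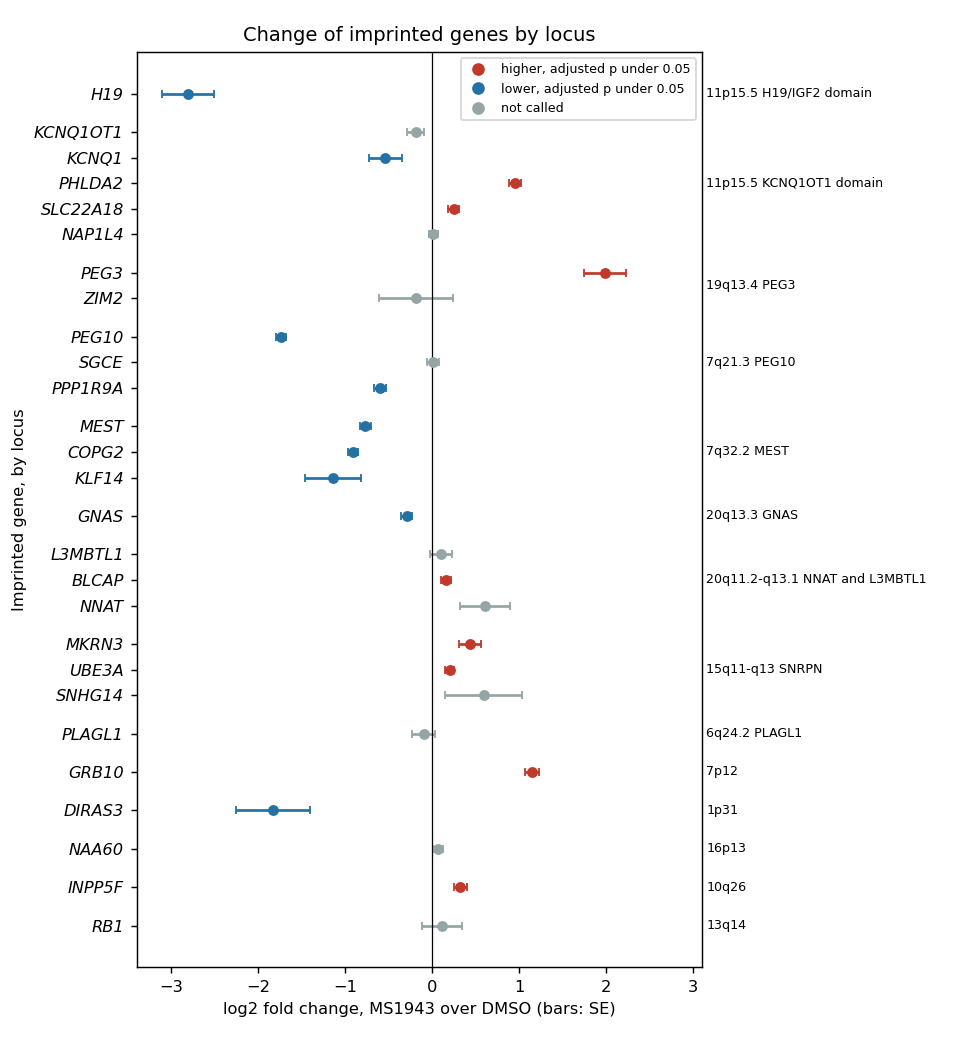
Log2 fold change (MS1943 over DMSO) of the 27 tested imprinted genes, grouped by locus, with bars for the SE of the edgeR estimate and colour for the call at an adjusted p under 0.05. All 3 genes shown at 7q32.2 lie to the left of 0, while the genes of the KCNQ1OT1 domain at 11p15.5 do not share a direction. At 7q21.3 PEG10 and PPP1R9A lie to the left of 0 and SGCE lies close to 0.

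At the PEG10 locus on chromosome 7, 2 of 3 genes fell and the third was not called. PEG10 (chr7:94656325-94669695 in GENCODE 29 on hg38, plus strand) is a paternally expressed gene derived from a retrotransposon, needed for placenta formation in the mouse. It had 118 and 120 CPM with MS1943, against 400 and 393 CPM with DMSO. Both MS1943 libraries lay far below both DMSO libraries, and PEG10 fell 3.34-fold (log2 fold change -1.74 ± 0.06 SE, edgeR adjusted p = 5.44e-15). SGCE, the gene of epsilon-sarcoglycan, is also read from the paternal copy and starts head to head with PEG10, the main starts lying 107 bases apart on opposite strands. SGCE had 31.5 and 32 CPM with MS1943, against 33.2 and 30.1 CPM with DMSO. The groups overlapped, with a log2 fold change of 0.01 ± 0.07 (edgeR adjusted p = 0.946), whose sign turned under total-read scaling (-0.11). The neighbour PPP1R9A, which encodes the actin-binding protein neurabin and is read from the maternal copy in some tissues, had 15.1 CPM in both MS1943 libraries, against 23.1 and 22.8 CPM with DMSO. It fell without overlap (log2 fold change -0.60 ± 0.07, edgeR adjusted p = 4.04e-07).

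All 3 of the 40 imprinted genes that lie at 7q32.2 fell. MEST (chr7:130486171-130506465, plus strand), a paternally expressed gene of the alpha/beta hydrolase fold known from embryonic mesoderm and fat, had 47.7 and 44.4 CPM with MS1943, against 83.0 and 74.6 CPM with DMSO. The groups did not overlap, and MEST fell 1.71-fold (log2 fold change -0.77 ± 0.06, edgeR adjusted p = 2.97e-09). COPG2 (chr7:130506238-130668748, minus strand), a subunit of the COPI vesicle coat, had 39.4 and 39.0 CPM with MS1943, against 75.3 and 72.2 CPM with DMSO. It fell 1.88-fold without overlap (log2 fold change -0.91 ± 0.06, edgeR adjusted p = 5.77e-11). MESTIT1 (chr7:130486042-130491033, minus strand), an imprinted RNA antisense to MEST over its upstream start and not among the 40, had 0.843 and 1.4 CPM with MS1943, against 0.547 and 0.746 CPM with DMSO, and rose (log2 fold change 0.76 ± 0.29, edgeR adjusted p = 0.0321). CPA4 nearby rose as well (log2 fold change 0.68 ± 0.07, adjusted p = 1.09e-07). The 3′ ends of MEST and COPG2 overlap on opposite strands, and the library kit does not mark strand, so reads in that overlap, or of MEST and MESTIT1, cannot be told apart by strand. KLF14, an intronless gene for a zinc finger factor read from the maternal copy, had 0.301 and 0.393 CPM with MS1943 (20 and 18 reads), against 0.714 and 0.800 CPM with DMSO (47 and 60 reads). It fell 2.21-fold without overlap (log2 fold change -1.15 ± 0.32, edgeR adjusted p = 0.00487), a call that ended with DESeq2 (adjusted p = 0.0612) and without MS1943 replicate 1 (0.0605).

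MEST is known to have an imprinted start, read from the paternal copy, and an upstream start read from both copies in many adult tissues. The windows around both are shown because nearly all MEST reads were assigned to the upstream one; they are RefSeq promoter windows of GRCh38.p14, plus strand, that end just past the start. Capitals mark TGCCGC or its reverse complement GCGGCA, the core that ZFP57 binds in the mouse when its CpG is methylated; both strands were searched and overlapping matches counted. The upstream window (chr7:130485925-130486224) holds 13 CpG and 1 match, and the window of the imprinted start (chr7:130491808-130492107) holds 22 CpG and 2 matches that overlap each other. These are the windows set on the positions nearest the annotated starts, and the counts depend on that choice: shifted windows at the same starts hold 22 CpG and 1 match (chr7:130486097-130486396, upstream) and 25 CpG and 3 matches (chr7:130491835-130492134, imprinted).
MEST upstream start: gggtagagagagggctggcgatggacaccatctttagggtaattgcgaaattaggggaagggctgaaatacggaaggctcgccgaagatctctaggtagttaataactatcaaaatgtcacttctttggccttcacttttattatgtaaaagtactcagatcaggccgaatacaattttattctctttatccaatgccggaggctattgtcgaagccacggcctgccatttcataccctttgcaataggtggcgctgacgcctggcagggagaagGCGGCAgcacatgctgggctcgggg
MEST imprinted start: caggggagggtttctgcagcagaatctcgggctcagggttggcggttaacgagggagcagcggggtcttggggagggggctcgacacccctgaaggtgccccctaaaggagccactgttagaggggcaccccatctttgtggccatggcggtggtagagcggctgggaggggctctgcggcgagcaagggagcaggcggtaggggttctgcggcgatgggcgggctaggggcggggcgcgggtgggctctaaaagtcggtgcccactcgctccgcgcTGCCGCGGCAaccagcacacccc

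Transcripts from the upstream start took 94.7% and 93.0% of MEST reads with MS1943, against 93.8% and 97.2% with DMSO. The shares overlapped, and in every library nearly all reads were assigned to the upstream start. The start group of the imprinted transcript, 5887 bases downstream, took 1.34% and 2.34% of MEST reads with MS1943 (42.4 and 47.7 reads), against 2.59% and 0.742% with DMSO (141.7 and 41.6 reads). These shares overlapped too. In TPM, which divides by length, the upstream start held 73.3% of the gene on average with MS1943 and 81.1% with DMSO, and the imprinted start 7.28% and 5.39%. The main upstream transcript, MEST-202, had 41.5 and 37.9 CPM with MS1943 against 74.7 and 69.0 CPM with DMSO (log2 fold change -0.85 ± 0.08, edgeR over transcripts, adjusted p = 0.011).

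Many promoter windows of the reference overlap, so overlapping windows on a strand were joined before counting, a step chosen after the data were seen. Of the 48 regions left for the imprinted genes, HYMAI not included, 15 (31.2%) held TGCCGC on either strand. Among the 32679 regions of all genes the share was 16.9%. Before joining, the 59 windows of the imprinted genes had a median GC content of 60.7%, and the windows of all genes 58.7%. The median CpG count was higher for the imprinted genes too. Unlike the 48 regions, the 59 windows include that of HYMAI, which is also a PLAGL1 window, and a SNURF window that is also a SNRPN window. TGCCGC itself holds a CpG, and the part of CpG and GC content in the higher share was not tested. Several regions belong to the same gene, with up to 6 windows for GNAS, and a match is a string of letters and not a bound site. The reference did not hold windows for the other imprinted genes.

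At the H19 and IGF2 domain of 11p15.5, 1 RNA was read and it fell. H19 (chr11:1995176-2001470, minus strand), a maternally expressed long non-coding RNA that hosts a microRNA, had 0.301 and 0.437 CPM with MS1943 (19.9 and 20 reads), against 1.78 and 3.25 CPM with DMSO (117.5 and 244.4 reads). Every MS1943 library lay below every DMSO library, and H19 fell 7.0-fold (log2 fold change -2.81 ± 0.30, edgeR adjusted p = 1.52e-07). With an offset for the effective lengths of the transcripts read, the log2 fold change was -2.06. H19-203, a transcript that starts at position 1997875, had 0 reads in both MS1943 libraries and 76.2 and 180.3 reads in the DMSO libraries (edgeR over transcripts, adjusted p = 0.021). It passed the filter on low reads through the DMSO libraries alone. H19-202 had 16.7 and 0 reads with MS1943 and 30.5 and 9.3 with DMSO and was not called. IGF2, the fetal growth factor read from the paternal copy, had 0 reads in all 4 libraries under both of its gene identifiers.

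In the neighbouring KCNQ1OT1 domain, 2 genes rose, 1 fell and 2 were not called. The domain's paternally expressed antisense RNA, KCNQ1OT1, had 8.76 and 7.67 CPM with MS1943, against 9.13 and 9.70 CPM with DMSO. The groups did not overlap, but the difference missed the threshold (log2 fold change -0.19 ± 0.10, edgeR adjusted p = 0.104); under total-read scaling it was called (0.0194), as it was without MS1943 replicate 1 (0.0455). PHLDA2 (chr11:2928273-2929455, minus strand), a maternally expressed gene that limits placental growth in the mouse, had 62.8 and 73.4 CPM with MS1943, against 33.9 and 36.3 CPM with DMSO. Both MS1943 libraries lay above both DMSO libraries, and PHLDA2 rose 1.93-fold (log2 fold change 0.95 ± 0.07, edgeR adjusted p = 6.15e-10).

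SLC22A18, an organic cation transporter gene next to PHLDA2, had 45.7 and 43.0 CPM with MS1943, against 37.2 and 37.7 CPM with DMSO. It rose without overlap by a smaller step (log2 fold change 0.25 ± 0.06, edgeR adjusted p = 0.00147), a call that ended under total-read scaling (0.0539). KCNQ1, the potassium channel gene inside which KCNQ1OT1 is read on the other strand, had 1.67 and 1.22 CPM with MS1943, against 2.07 and 2.20 CPM with DMSO. It fell without overlap (log2 fold change -0.54 ± 0.19, edgeR adjusted p = 0.0217), but not with DESeq2 (0.123), with the length offset (0.0617), without DMSO replicate 2 (0.0532) or without MS1943 replicate 2 (0.165). Reads of KCNQ1 and KCNQ1OT1 cannot be told apart by strand. NAP1L4, a histone chaperone gene at the domain's edge, had 124 and 127 CPM with MS1943 and 128 and 120 CPM with DMSO, overlapping, with a log2 fold change of 0.01 ± 0.06 (edgeR adjusted p = 0.862) that turned to -0.10 under total-read scaling.

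PEG3 at 19q13.4 rose and its neighbour was not called. PEG3 (chr19:56810077-56840728, minus strand), a paternally expressed zinc finger gene known for effects on growth and nurturing in the mouse and for silencing in several cancers, had 2.27 and 1.68 CPM with MS1943, against 0.471 and 0.533 CPM with DMSO. The groups were well apart, and PEG3 rose 3.95-fold (log2 fold change 1.98 ± 0.24, edgeR adjusted p = 8.25e-07). With the length offset the log2 fold change was 1.18 and the call held (0.0127), and the level stayed low, at 0.367 ± 0.0715 TPM with MS1943 and 0.182 ± 0.0676 TPM with DMSO. PEG3-204 had 38.6 and 27.3 reads with MS1943 and 0 in both DMSO libraries (edgeR over transcripts, adjusted p = 0.0223). It passed the filter on low reads through the MS1943 libraries alone. PEG3-201 had 102.8 and 49.5 reads with MS1943 against 24.9 and 26.2 with DMSO. ZIM2, a zinc finger gene that shares its start with PEG3, had 0.376 and 0.175 CPM with MS1943 and 0.334 and 0.320 CPM with DMSO. Its groups overlapped and it was not called (log2 fold change -0.19 ± 0.43, edgeR adjusted p = 0.734), with the sign turning under the length offset and without MS1943 replicate 2. The ZIM2 transcripts annotated from the shared start, ZIM2-201, ZIM2-206 and ZIM2-208, had 0 reads in every library. All ZIM2 reads were assigned to transcripts that start elsewhere, so they do not measure the shared start.

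GNAS at 20q13.3 (chr20:58839718-58911192, plus strand) fell by a small step. The locus reads several proteins from alternative first exons: NESP55 from the maternal copy, XLas from the paternal copy, a non-coding paternal transcript from exon A/B, and Gs-alpha from both copies in most tissues. The whole gene had 478 and 451 CPM with MS1943, against 597 and 542 CPM with DMSO, and fell 1.23-fold without overlap (log2 fold change -0.29 ± 0.06, edgeR adjusted p = 5.04e-04). The start of NESP55 had 0 reads in all 4 libraries. The start of XLas had 1.6 and 0 reads with MS1943 and 1.6 and 0 with DMSO, so neither of the imprinted protein starts was read above the floor of 3 reads.

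The reads of GNAS lay instead on a start group at position 58891302, where Gs-alpha begins, and on one 2889 bases upstream, where exon A/B is known to lie. The Gs-alpha start took 62.4% and 65.4% of GNAS reads with MS1943, against 61.5% and 62.0% with DMSO. The upstream group took 36.1% and 33.6% with MS1943, against 37.5% and 36.7% with DMSO. Neither pair of groups overlapped, but the gaps were no wider than those between replicates with MS1943. In TPM the order of the starts turned round, with the upstream group at 51.7% with MS1943 and 52.2% with DMSO and the Gs-alpha group at 46.7% and 46.3%. GNAS-210 of the Gs-alpha start had 98.1 and 96.1 CPM with MS1943, against 143 and 135 CPM with DMSO (log2 fold change -0.52 ± 0.06, edgeR over transcripts, adjusted p = 0.0152). GNAS-234, a non-coding transcript of the upstream group, had 22.1 and 30.1 CPM with MS1943, against 80.5 and 59.2 CPM with DMSO (log2 fold change -1.42 ± 0.22, adjusted p = 0.0281). Neither stands for its start group. Of the Gs-alpha start, GNAS-207 fell (-0.55, 0.0418), but GNAS-211 (-0.14, 0.383) and GNAS-201 (-0.11, 0.581) were not called. Of the upstream group, GNAS-247 fell less (-0.48, 0.0323), and GNAS-238 (-0.03, 0.955) and GNAS-239 (0.51, 0.246) were not called. How reads were shared among these overlapping transcripts was not tested.

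**Figure D3:**
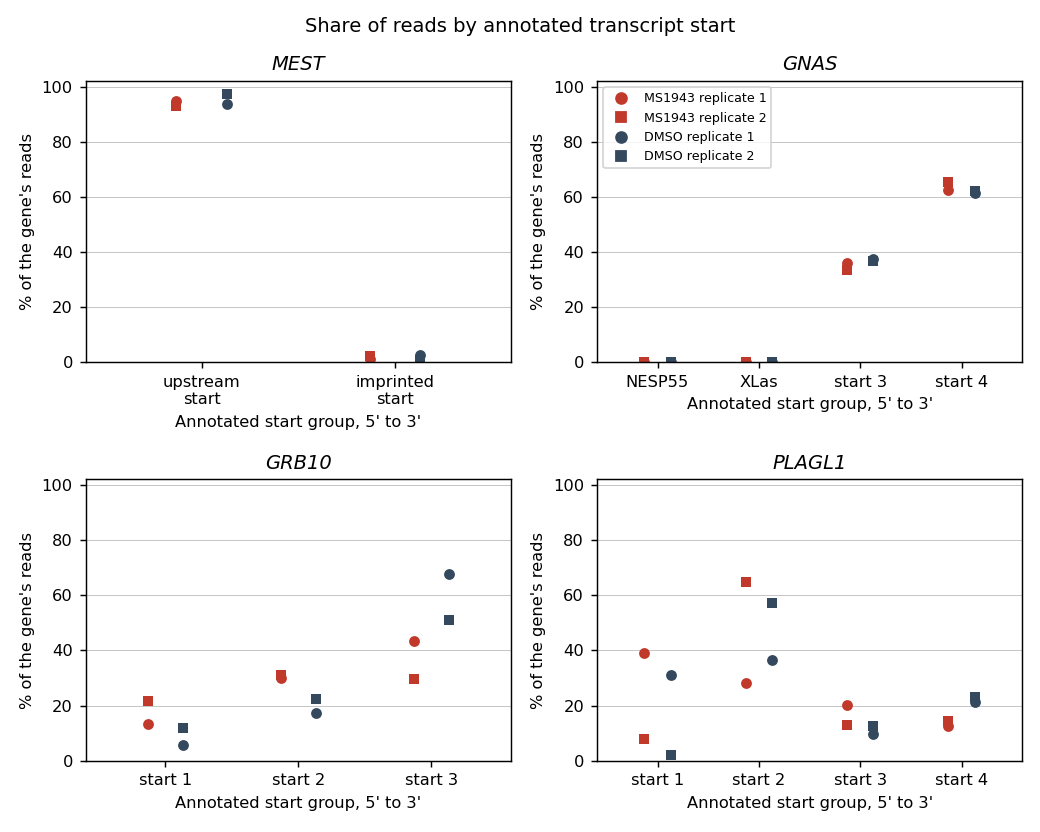
Share of the reads of MEST, GNAS, GRB10 and PLAGL1 by annotated transcript start, in percent of the gene's estimated reads per library, with MS1943 in red and DMSO in dark blue. MEST reads lie at the upstream start and GNAS reads at 2 of 4 starts in every library, the GRB10 shares differ between treatments, and the PLAGL1 shares differ between replicates of the same treatment.

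Elsewhere on chromosome 20, BLCAP rose slightly, and NNAT and L3MBTL1 were not called. BLCAP, whose transcript holds NNAT within an intron on the other strand, had 60.0 and 59.5 CPM with MS1943, against 52.3 and 55.1 CPM with DMSO. The groups did not overlap (log2 fold change 0.15 ± 0.06, edgeR adjusted p = 0.0234), but the call ended under total-read scaling (0.539), with no filter (0.176), with the length offset (0.0537) and without any 1 of DMSO replicate 1 (0.124), MS1943 replicate 1 (0.130) or MS1943 replicate 2 (0.0801). NNAT, the paternally expressed gene of the membrane protein neuronatin, had 1.31 and 0.940 CPM with MS1943 and 0.532 and 0.946 CPM with DMSO. The groups overlapped and it was not called (log2 fold change 0.61 ± 0.29, edgeR adjusted p = 0.077), though it was without DMSO replicate 2 (0.00274) and without MS1943 replicate 2 (0.029). L3MBTL1, a paternally expressed gene for a chromatin-binding protein, had 6.02 and 5.92 CPM with MS1943 and 4.80 and 6.28 CPM with DMSO, overlapping, with a log2 fold change of 0.11 ± 0.13 (edgeR adjusted p = 0.502) whose sign turned under total-read scaling.

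The Prader-Willi and Angelman region at 15q11-q13 was divided between genes near 0 and genes that were read. NDN had 0 reads in every library, and MAGEL2 had 1 read in DMSO replicate 2 and 0 elsewhere. SNRPN, normally the main paternal transcript of the region, had 7.5 and 4.0 reads with MS1943 and 8.0 and 11.8 with DMSO, and SNURF, which shares its transcript, had at most 0.5 reads in any library. These 4 genes were not tested. MKRN3, a paternally expressed ubiquitin ligase gene known as a brake on puberty, had 5.21 and 5.31 CPM with MS1943, against 3.58 and 4.16 CPM with DMSO. It rose without overlap (log2 fold change 0.44 ± 0.13, edgeR adjusted p = 0.00605), a call that ended with the length offset (0.304).

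UBE3A, the ubiquitin ligase gene of Angelman syndrome, which is read from the maternal copy alone in neurons, had 73.0 and 75.4 CPM with MS1943, against 65.5 and 63.7 CPM with DMSO. It rose by a small step without overlap (log2 fold change 0.20 ± 0.06, edgeR adjusted p = 0.00403), and the call ended under total-read scaling (0.134). SNHG14, the paternal host RNA of the region's small nucleolar RNAs, runs antisense to UBE3A and had 0.316 and 0.284 CPM with MS1943, against 0.243 and 0.16 CPM with DMSO. These were 12.0 to 21.2 reads per library, and although the groups did not overlap the gene was not called (log2 fold change 0.59 ± 0.45, edgeR adjusted p = 0.271). Reads of UBE3A and SNHG14 cannot be told apart by strand where they overlap.

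The DLK1-DIO3 domain at 14q32 was close to unread. Its paternally expressed genes DLK1, RTL1 and DIO3 and its maternally expressed RNA MEG9 had 0 reads in all 4 libraries. MEG3, a maternally expressed long non-coding RNA often silenced in tumours, had 2 and 0 reads with MS1943 and 4 and 1 with DMSO. MEG8 had 0 and 1 reads with MS1943 and 3.3 and 2.6 with DMSO. All 6 genes were thus near or under the floor of 3 reads in both treatments, and no difference was detectable at this depth.

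GRB10 at 7p12 (chr7:50590063-50793462, minus strand), which encodes an adaptor that restrains insulin receptor signalling, was among the largest rises. GRB10 had 32.5 and 29 CPM with MS1943, against 15 and 12.9 CPM with DMSO. The groups did not overlap, and it rose 2.21-fold (log2 fold change 1.14 ± 0.08, edgeR adjusted p = 3.54e-10). GRB10 is read from different copies by tissue, the paternal one in brain and the maternal one in placenta, from different starts. Windows of its 3 main starts are shown because the shares of these starts were apart between treatments; they are on the minus strand of GRCh38.p14, from RefSeq. The most upstream window (chr7:50793404-50793703) holds 44 CpG and 1 match to GCGGCA, in capitals. The middle start's window (chr7:50782847-50783146) holds 24 CpG and that of the downstream start (chr7:50732304-50732603) 3, both with no match on either strand.
GRB10 upstream start: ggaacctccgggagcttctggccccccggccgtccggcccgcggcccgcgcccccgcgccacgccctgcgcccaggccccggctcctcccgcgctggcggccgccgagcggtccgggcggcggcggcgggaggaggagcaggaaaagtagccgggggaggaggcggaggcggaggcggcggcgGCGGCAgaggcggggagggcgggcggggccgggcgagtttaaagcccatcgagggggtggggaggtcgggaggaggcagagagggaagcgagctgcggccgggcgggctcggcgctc
GRB10 middle start: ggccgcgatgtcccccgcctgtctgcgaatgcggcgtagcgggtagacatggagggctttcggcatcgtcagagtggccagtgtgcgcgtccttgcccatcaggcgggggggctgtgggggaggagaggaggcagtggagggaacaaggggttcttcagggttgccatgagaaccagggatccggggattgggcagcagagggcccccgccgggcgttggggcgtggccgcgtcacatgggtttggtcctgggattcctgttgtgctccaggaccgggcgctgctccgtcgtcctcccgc
GRB10 downstream start: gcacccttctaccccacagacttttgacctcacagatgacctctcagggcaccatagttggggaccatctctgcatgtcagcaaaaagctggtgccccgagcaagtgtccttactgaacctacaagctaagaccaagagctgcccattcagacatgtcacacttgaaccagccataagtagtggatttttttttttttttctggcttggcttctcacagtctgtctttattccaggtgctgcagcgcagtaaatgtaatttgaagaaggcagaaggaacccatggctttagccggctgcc

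The CpG-poor downstream start took 43.6% and 29.8% of GRB10 reads with MS1943, against 67.6% and 51.2% with DMSO. The CpG-rich middle start took 30.2% and 31.2% with MS1943, against 17.2% and 22.3% with DMSO. The most upstream start, at position 50793462, took 13.2% and 21.7% with MS1943, against 5.85% and 11.8% with DMSO. None of these 3 pairs of groups overlapped. The gap between treatments was wider than that between replicates for the middle start alone, and an exact permutation test of 2 against 2 libraries cannot go below p = 0.333. The gaps between replicates ran the same way in both treatments. Replicate 1 was the higher for the downstream start, and replicate 2 for the middle and most upstream starts. Whether replicates of the same number share a batch was not tested. GRB10-210, of the middle start, had 8.78 and 8.61 CPM with MS1943, against 2.28 and 2.68 CPM with DMSO, and rose (log2 fold change 1.81 ± 0.16, edgeR over transcripts, adjusted p = 0.00957). GRB10-201, of the most upstream start, had 2.06 and 3.60 CPM with MS1943, against 0.834 and 0.584 CPM with DMSO (adjusted p = 0.0482).

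The other single imprinted genes moved less or rested on few reads. DIRAS3 at 1p31, a paternally expressed Ras-family gene described as a tumour suppressor in breast and ovary, had 0.150 and 0.437 CPM with MS1943 (9.8 and 19.7 reads), against 1.34 and 0.653 CPM with DMSO (87.8 and 49.3 reads). It fell 3.57-fold without overlap (log2 fold change -1.84 ± 0.43, edgeR adjusted p = 0.00101), but passed the filter on low reads through the DMSO libraries alone. Its transcript DIRAS3-201, with the same reads, was not called (edgeR over transcripts, adjusted p = 0.173). The log2 fold change shifted with the library left out: -1.24 without DMSO replicate 1, -1.18 without MS1943 replicate 1 and -2.71 without MS1943 replicate 2. INPP5F at 10q26, an inositol phosphatase gene with an imprinted brain isoform, had 17.4 and 19.4 CPM with MS1943, against 14.5 and 14.9 CPM with DMSO. It rose without overlap (log2 fold change 0.32 ± 0.08, edgeR adjusted p = 0.00132), and its start at position 119726048 held 96.1% to 98.4% of its reads in the 4 libraries.

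PLAGL1 at 6q24.2, a paternally expressed zinc finger gene linked to transient neonatal diabetes, had 4.53 and 3.67 CPM with MS1943 and 4.45 and 4.40 CPM with DMSO. The groups overlapped and it was not called (log2 fold change -0.10 ± 0.13, edgeR adjusted p = 0.551). The share of its most upstream start was 39.0% and 7.90% with MS1943 and 31% and 1.94% with DMSO, so libraries of the same replicate number, which here only follows accession order, lay closer than libraries of the same treatment. PLAGL1-206 showed it too, with 0 and 79.7 reads with MS1943 and 0 and 64.7 with DMSO, as did GRB10-203, with 0.4 and 40.8 reads with MS1943 and 0.5 and 42.7 with DMSO. Whether these libraries share a batch was not tested, and the labels name none. Most reads of several other genes came from 1 start in every library, with 99.8% to 100% for PEG10, 91.4% to 92.9% for NAA60, 92.3% to 94.3% for BLCAP, 72.9% to 100% for KCNQ1 and 59.3% to 70.4% for L3MBTL1. NAA60 at 16p13, an N-terminal acetyltransferase gene, had 71.7 and 70.4 CPM with MS1943, against 68.8 and 66.9 CPM with DMSO. The groups did not overlap, but it was not called (log2 fold change 0.07 ± 0.05, edgeR adjusted p = 0.310), and the sign turned under total-read scaling (-0.05).

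RB1 at 13q14, the retinoblastoma tumour suppressor gene, has an imprinted internal start, and the gene as a whole favours the maternal copy. MDA-MB-468 is known as a line without functional RB1. RB1 had 1.13 and 1.27 CPM with MS1943 and 0.972 and 1.23 CPM with DMSO. The groups overlapped, and it was not called (log2 fold change 0.11 ± 0.23, edgeR adjusted p = 0.697). Its reads lay at the 5′ end: RB1-205, a short transcript with a retained intron at chr13:48303751-48360737, held 72.3 and 53.6 reads with MS1943 and 61.3 and 82.3 with DMSO. The full-length coding transcript RB1-201 held 2.7 and 0 reads with MS1943 and 2.7 and 6.8 with DMSO. RB1-205 thus took 89.5% to 96.4% of RB1 reads in the 4 libraries.

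**Figure D4:**
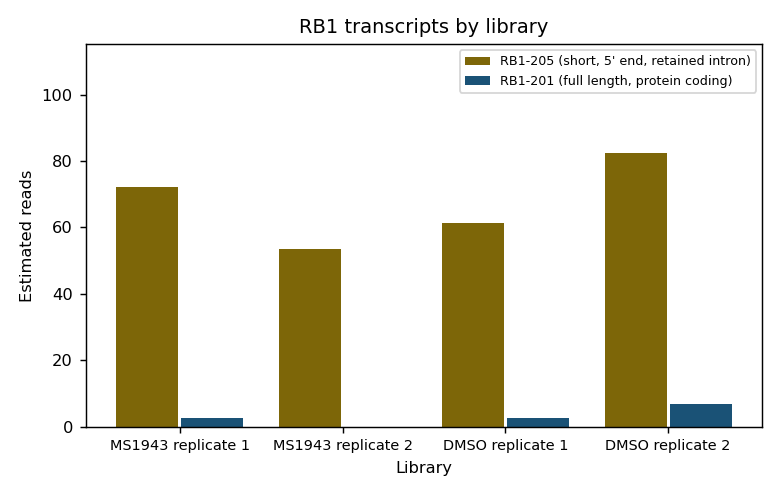
Estimated reads of the short 5′ transcript RB1-205 and of the full-length coding transcript RB1-201 in each library, MS1943 at the left and DMSO at the right. RB1-205 held 53.6 to 82.3 reads and RB1-201 at most 6.8.

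Grouped by the parental copy that textbooks give as expressed, each group of tested genes held both rises and falls. Of 13 tested genes with paternal expression, 3 rose (PEG3, MKRN3 and INPP5F) and 3 fell (PEG10, MEST and DIRAS3). Each gene was placed whole, whatever start was read. For MEST, 93.0% to 97.2% of reads were assigned to the upstream start, known to be read from both copies in many adult tissues. For INPP5F, 96.1% to 98.4% lay on 1 start, and its imprinted isoform is known from brain. Of 10 with maternal expression, 3 rose (PHLDA2, SLC22A18 and UBE3A) and 4 fell (H19, KCNQ1, PPP1R9A and KLF14). Of 4 whose copy depends on isoform or tissue, GRB10 and BLCAP rose and COPG2 and GNAS fell. These are counts beside the background of 30.0% higher and 29.4% lower, with no test between the groups, and under total-read scaling the maternal group had 1 rise, while with DESeq2 it had 2 falls.

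At transcript level, 160 transcripts of 26 imprinted genes were tested, and 7 rose and 13 fell, in 10 genes. Over all 74941 transcripts tested, 12.4% were called (6.23% higher and 6.21% lower), and 6.69% were called with at least 2-fold, as were 14 of the 160. These counts include transcripts with 0 reads in both libraries of a treatment. GNAS-237 and PEG10-205, called lower, had 0 reads in both MS1943 libraries, and GRB10-207, called higher, had 0 in both DMSO libraries. Each passed the filter on low reads through the other treatment alone, as did H19-203, PEG3-204 and SGCE-204. PEG10-202, the long PEG10 transcript, had 104 CPM in both MS1943 libraries against 369 and 353 CPM with DMSO (log2 fold change -1.80 ± 0.05, edgeR over transcripts, adjusted p = 0.00256), and PEG10-203 fell alongside it (log2 fold change -1.91, adjusted p = 0.00456). COPG2-202 had 38 and 37.6 CPM with MS1943 against 77.7 and 73.3 CPM with DMSO (adjusted p = 0.00616). SGCE, not called as a gene, had 1 transcript called, SGCE-204 (edgeR over transcripts, adjusted p = 0.0437). That transcript had 0 reads in both MS1943 libraries and 17.4 and 36.1 with DMSO, and passed the filter on low reads through the DMSO libraries alone. These calls rest on all 4 libraries, since leaving out any 1 of them left 0 to 2 rises and 3 to 5 falls: 1 and 4 without DMSO replicate 1, 2 and 5 without DMSO replicate 2, 1 and 3 without MS1943 replicate 1, and 0 and 3 without MS1943 replicate 2.

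A wider list of 52 other imprinted genes was read beside these 40. Of its 31 tested genes, 14 rose (45.2%) and 9 fell (29%), where 30.0% of all tested genes rose and 29.4% fell. The list's median log2 fold change was 0.15, against -0.01 over all tested genes. ASCL2 and SLC22A2, both among the falls, passed the filter on low reads through the DMSO libraries alone. DDC, the dopa decarboxylase gene next to GRB10, had 8.62 and 8.46 CPM with MS1943 against 2.11 and 2.05 CPM with DMSO (log2 fold change 2.04 ± 0.12, edgeR adjusted p = 3.92e-11). SMOC1, a gene for a secreted calcium-binding matrix protein, had 3.60 and 3.32 CPM with MS1943 against 0.592 and 0.347 CPM with DMSO (2.90 ± 0.23, adjusted p = 1.68e-09). Both rose without overlap. IGF2R, whose receptor clears IGF2, rose with a log2 fold change of 0.62 ± 0.06 (edgeR adjusted p = 2.58e-08). TSSC4, at 11p15.5, rose likewise (log2 fold change 0.60 ± 0.06, adjusted p = 5.76e-08). ANO1, a chloride channel gene, fell by 0.91 on the log2 scale (SE 0.06, adjusted p = 9.98e-11), and TP73, a relative of p53, fell by 1.16 (SE 0.09, adjusted p = 2.77e-09).

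Genes that set or keep imprints moved mostly down. Of 27 listed, 21 were tested, and 1 rose (4.76%) and 14 fell (66.7%), where 30.0% of all tested genes rose and 29.4% fell. Their median log2 fold change was -0.41. ZFP57, among the falls, passed the filter on low reads through the DMSO libraries alone. UHRF1, which brings DNMT1 to newly copied DNA, had 44.2 and 43.6 CPM with MS1943 against 115 and 118 CPM with DMSO (log2 fold change -1.41 ± 0.06, edgeR adjusted p = 7.39e-14). The de novo methyltransferase genes DNMT3B (8.21 and 7.93 CPM with MS1943 against 19 and 18.5 CPM with DMSO, adjusted p = 1.52e-10) and DNMT3A (49.1 and 45.6 CPM with MS1943 against 81.8 and 83.1 CPM with DMSO, adjusted p = 4.84e-10) fell as well. EHMT2 and EHMT1, which methylate lysine 9 of histone H3, fell by 0.71 (SE 0.06, adjusted p = 2.70e-09) and 0.52 (SE 0.06, 1.30e-07) on the log2 scale, and MBD3, of a chromatin remodelling complex, fell by 0.60 (SE 0.05, adjusted p = 1.34e-08). EZH2 itself, named after its values were seen, had 104 and 108 CPM with MS1943 against 126 and 117 CPM with DMSO (log2 fold change -0.19 ± 0.06, adjusted p = 0.00605), which measures its RNA and not the protein. Whether these changes bear on the imprinted genes was not tested.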

How the data were processed

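RNA-seq of 4 libraries, 2 per treatment, was grouped by the treatment label. Libraries were made with a poly(A) kit that does not mark strand, per the labels' protocols. Salmon 0.9.1, R 3.4.3, DESeq2 and hg38 are named in the submitters' processing notes, and the sources used here do not give the annotation release. The authors deposited estimated counts and TPM per transcript from the authors' Salmon runs, per the file headers, with effective lengths. Salmon shares reads between overlapping transcripts by a model whose error the files do not hold.

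Of 197653 transcripts, 193505 matched GENCODE 29; the rest held 0.482% to 0.496% of reads. Estimated counts were summed per gene and rounded. Genes were tested with edgeR 4.0.16 (quasi-likelihood, TMM, filterByExpr with a minimum count of 10, treatment alone; R 4.3.3), adjusted over 19358 genes, with a common biological coefficient of variation of 0.0478. CPM values are TMM-scaled. The same fit ran on 74941 transcripts. Starts within 500 bases were joined. Replicates correlated at r = 0.9941 (MS1943) and 0.995 (DMSO). Every tested imprinted gene was named, the untested ones with their reads, up to 6 called genes of each further list, and start groups with at least 10% of a gene's reads. Other called transcripts shown, and EZH2, were picked after their values were seen. The imprinted genes and lists were chosen with earlier results of these data known. One marker gene is not reported here and is left out of the sums. Floors and intervals cover counting error only. The test was checked on simulated data. Alternatives were other scalings, no filter, DESeq2 1.42.0, an offset from read-weighted effective lengths, and each library left out.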

Additional observations from a re-analysis of the deposited data

How the results depend on the processing

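No paired analysis was made, because the labels carry no replicate numbers, and those used here follow accession order and only name the libraries. Some transcript shares of PLAGL1 and GRB10 followed these numbers, and whether libraries of the same number share a batch was not tested. Of 243 changes of the imprinted genes under alternatives, 205 kept their direction and side of the threshold, 15 lost the call, 4 gained it and 19 turned their sign, all of the last in genes not called; 12 genes kept both throughout. The cause of each shift was not tested. Under total-read scaling, 4619 of all 19358 tested genes rose and 6973 fell. With it 5 imprinted genes rose, 1 of the maternal group rose and 1 of the isoform- or tissue-dependent group rose. In imprint maintenance 0 genes rose, and the imprinted median was -0.099. With no filter the dependent group had 1 rise and the median was -0.022; with the length offset these were 1 and -0.055, with 0 rises in imprint maintenance. With DESeq2 the maternal group had 2 falls. Leaving out 1 library gave 1 to 2 rises in the dependent group, 0 to 2 rises and 3 to 5 falls of transcripts, 1 to 2 rises in imprint maintenance, and a median of -0.044 without DMSO replicate 1 and -0.037 without DMSO replicate 2.

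Signs turned in genes that were not called. With total reads these were NAP1L4 (-0.099), SGCE (-0.106), L3MBTL1 (-0.010), NAA60 (-0.047) and RB1 (-0.002); with no filter NAP1L4 (-0.022) and SGCE (-0.029). With the length offset they were ZIM2 (0.040), SGCE (-0.059), L3MBTL1 (-0.075) and NAA60 (-0.055). Without DMSO replicate 1 they were L3MBTL1 and RB1, without DMSO replicate 2 NAP1L4 and SGCE, and without MS1943 replicate 2 NAP1L4 (-0.014), ZIM2, SGCE (-0.015) and PLAGL1. Over the 4 fits that leave out 1 library, the log2 fold change ran from -0.037 to 0.054 for NAP1L4, -0.908 to 0.190 for ZIM2, -0.071 to 0.076 for SGCE, -0.075 to 0.310 for L3MBTL1, -0.282 to 0.022 for PLAGL1 and -0.044 to 0.288 for RB1. KLF14 held 18 to 60 reads per library and DIRAS3 9.8 to 87.8, and such depths and 2 libraries per treatment limit what can be called.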

Other observations

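Among the 52 other imprinted genes, several that lie beside the loci described above also moved, and are named here after their values were seen. CDKN1C, the maternally expressed cyclin-dependent kinase inhibitor gene of the KCNQ1OT1 domain, had 1.67 and 1.95 CPM with MS1943, against 1.18 and 0.88 CPM with DMSO (log2 fold change 0.81, edgeR adjusted p = 0.00342). OSBPL5, of the same domain, had 39.0 and 39.6 CPM with MS1943, against 53.0 and 52.1 CPM with DMSO (-0.42, adjusted p = 2.96e-06). ASCL2, a trophoblast factor gene at 11p15.5, had 0.12 and 0.0437 CPM with MS1943, against 0.44 and 0.413 CPM with DMSO (-2.25, adjusted p = 7.61e-04), with 8 and 2 reads with MS1943, and passed the filter on low reads through the DMSO libraries alone. CPA4, near MEST, had 32.1 and 32.5 CPM with MS1943, against 18.7 and 21.5 CPM with DMSO (0.68, adjusted p = 1.09e-07), so it rose where MEST, COPG2 and KLF14 fell.

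NAP1L5, a paternally expressed gene inside an intron of HERC3, had 2.27 and 2.91 CPM with MS1943, against 5.62 and 5.61 CPM with DMSO (-1.13, adjusted p = 1.18e-06). HM13, the signal peptide peptidase gene whose intron holds the imprinted MCTS2, had 225 and 234 CPM with MS1943, against 161 and 150 CPM with DMSO (0.56, adjusted p = 7.72e-08). MCTS2 rose too (1.85 and 2.34 CPM with MS1943 against 1.22 and 0.786 CPM with DMSO, adjusted p = 4.93e-04), but it lies within HM13 and its reads may be shared. ZFP57, which reads methylated imprints, had 0.421 and 0.175 CPM with MS1943 against 1.29 and 1.36 CPM with DMSO (-2.07, adjusted p = 1.52e-05), and passed the filter through the DMSO libraries alone, while ZNF445, its partner in this role, was not called (0.12, adjusted p = 0.145).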
